A study of Mus musculus with 18 samples.

Results

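The genes described here were 44 cell cycle and DNA replication genes, chosen by symbol and found by Ensembl identifier among the 54232 genes of the count table. Of these, 19 act in DNA replication (S phase) and 25 in mitosis. All 44 were found, and all 44 passed the filter on low counts that left 17074 genes for testing. The lowest count of a member in any library was 37, for Ttk. In CD103+ and double-positive dendritic cells (DCs), most replication and all mitosis members were called lower in intestinal lymph node than in small intestinal lamina propria. Of all genes 15.1% and 13.6% were called lower in these subsets. In CD11b+ DCs only E2f8 and Kif23 were called lower, near the 4.93% of all genes, and neither call held in every alternative fit. There 17 of 19 replication and 17 of 25 mitosis members had a log2 fold change below 0. The limits of a call are given below.

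The data were 18 RNA-seq libraries of mouse DCs in 6 groups of 3 libraries. The DCs were of 3 subsets, which the labels name as CD11b+, CD103+ and Double+ and which are called CD11b+, CD103+ and double-positive here, and each subset came from 2 tissues, the small intestinal lamina propria and the intestinal lymph node. Every group was labelled C57BL/6J and CD11a KO. Itgal encodes CD11a, which pairs with CD18 to form the leukocyte integrin LFA-1. There was no wild-type library, so no comparison below bears on the genotype. Itgal was read in every library, at 6.45 to 26.6 CPM (counts scaled to library size), and whether the knockout allele is still transcribed was not tested. No label gave the age or sex of the mice, how many were pooled for a library, or that these mice had been infected, and no sort gate was given for the lymph node DCs.

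A cell that is to divide first licenses its replication origins by loading the MCM helicase ring, a step that needs Cdc6. Cyclin E and the E2F transcription factors then drive entry into S phase, when DNA is copied by forks that need the activated helicase, the sliding clamp Pcna and a supply of deoxynucleotides. Later, cyclin A and cyclin B with Cdk1 start mitosis, the spindle attaches to the kinetochores under the watch of the spindle checkpoint, and the anaphase-promoting complex destroys the cyclins so that the cell can divide. Many genes of the first set are targets of E2F, and many of the second are controlled through CHR and CCAAT elements near their start. Conventional DCs arise from precursors that still divide in tissue, and DCs that carry antigen to the lymph node are a mature, mostly non-dividing state. In bulk libraries such as these, fewer dividing cells and less of a transcript in each cell cannot be told apart.

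The promoters of both sets were searched for words of these elements. Whether the words go with the expression differences below was not tested. The windows ran from 250 bases before to 50 bases after each start, from RefSeq on GRCm38.p6, and 16 of 19 replication and 21 of 25 mitosis members had an entry. Every word was searched on both strands. For E2F, the first word was TTCCCGC, the next differed as TTCGCGC, the third was written TTGCCGC, and the last word searched was TTGGCGC. At least 1 of these E2F words was present in 9 of 16 replication members (56.2%), in 3 of 21 mitosis members (14.3%) and in 10.9% of the 27025 genes with a window. The CHR word TTTGAA was present in 3 of 16 replication members (18.8%), 16 of 21 mitosis members (76.2%) and 20.2% of all genes. The word CCAAT was present in 11 of 16 (68.8%), 19 of 21 (90.5%) and 41.1% of all genes, and CHR together with CCAAT in a single window in 3 of 16, 16 of 21 and 7.97% of all genes. The E2F word TTGGCGC can overlap CCAAT read on the other strand, and a pair of E2F words can overlap on opposite strands. A match is a description of the letters, not of a bound site.

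The windows printed as examples are those with the most words among the members with values per library. These are Mcm6 and Uhrf1 for replication and Top2a and Ube2c for mitosis. The windows run 5′ to 3′ along the gene, with the words in capitals, and are cut at most 30 bases into the transcript. They lie on the minus strand at chr1:128359695-128359834 (Mcm6), on the plus strand at chr17:56303269-56303362 (Uhrf1), on the minus strand at chr11:99024187-99024436 (Top2a) and on the plus strand at chr2:164769681-164769925 (Ube2c).
Mcm6: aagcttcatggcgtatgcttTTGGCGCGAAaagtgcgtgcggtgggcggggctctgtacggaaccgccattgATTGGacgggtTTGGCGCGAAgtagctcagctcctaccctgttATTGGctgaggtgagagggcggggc
Uhrf1: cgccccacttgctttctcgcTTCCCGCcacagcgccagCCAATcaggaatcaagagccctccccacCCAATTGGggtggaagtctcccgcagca
Top2a: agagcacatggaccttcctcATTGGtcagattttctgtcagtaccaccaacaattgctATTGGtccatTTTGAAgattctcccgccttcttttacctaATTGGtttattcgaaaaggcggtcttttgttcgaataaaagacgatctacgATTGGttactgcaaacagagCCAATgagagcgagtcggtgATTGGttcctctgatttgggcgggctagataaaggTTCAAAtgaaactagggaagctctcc
Ube2c: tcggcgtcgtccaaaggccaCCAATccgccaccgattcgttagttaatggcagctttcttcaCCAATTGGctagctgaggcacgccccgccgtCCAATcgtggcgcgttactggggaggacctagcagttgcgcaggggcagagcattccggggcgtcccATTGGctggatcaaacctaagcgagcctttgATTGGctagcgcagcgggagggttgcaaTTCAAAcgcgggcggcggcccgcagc
The Mcm6 stretch holds 4 E2F words, in overlapping pairs, and 2 CCAAT words, and that of Uhrf1 holds 1 E2F word and 3 CCAAT words. Those of Top2a and Ube2c each hold 6 CCAAT words, with 2 CHR words in Top2a and 1 in Ube2c, and no E2F word.

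The total count per library was 23574292 to 46901985, with medians of 27311923 in lamina propria and 27401041 in lymph node. The DC genes Flt3 and Zbtb46 were read in every library, at no less than 330 and 161 CPM. The other 3 of the 5 DC genes, Itgax, H2-Ab1 and Cd74, were lower in every lymph node library than in every lamina propria library, and the 5 genes summed to 63556 to 77640 CPM in lamina propria and 18941 to 46243 CPM in lymph node. Itgae, which encodes CD103, was at 92 to 1439 CPM in lamina propria and 5.57 to 49.1 CPM in lymph node. Over 4 cDC1 (type 1 conventional DC) genes, double-positive DCs were at 221 to 256 CPM in lamina propria and 878 to 1037 CPM in lymph node. Over 3 cDC2 (type 2) genes they were at 549 to 583 and 186 to 224 CPM. For CD103+ DCs cDC1 was 6252 to 6737 and 1877 to 1938 CPM, and cDC2 10.9 to 11.4 and 38.1 to 47.3 CPM. For CD11b+ DCs cDC1 was 287 to 295 and 534 to 590 CPM, and cDC2 587 to 741 and 565 to 900 CPM. Whether a subset held the same cells in both tissues was not tested. All 9 lamina propria libraries had Ddx3y at 50 to 74.3 CPM and Xist at no more than 0.285 CPM, and all 9 lymph node libraries had Xist at 15.3 to 89 CPM. The lymph node CD11b+ and double-positive libraries of replicate 3 also had Ddx3y, at 58 and 52.1 CPM. The tissue and the sex of the mice can therefore not be told apart in any tissue comparison below. The lymph node CD103+ libraries had raw Ddx3y counts of 2, 2 and 8, so this sex-linked transcript also differed between the lymph node subsets. Of 10 T cell marker genes, 9 were higher in every lymph node library than in every lamina propria library, and their summed level was 8.52 to 44.9 CPM in lamina propria and 369 to 756 CPM in lymph node. None of these 10 genes was at 0 in any library. Epithelial and macrophage sums were lower in lymph node, but not every gene followed them. The subsets also differed in these sums. Pooled over subsets, 1 of 8 epithelial and 0 of 6 macrophage genes were lower in every lymph node than in every lamina propria library. In CD11b+ DCs the macrophage gene Adgre1 went the other way, with raw counts of 2360, 2162 and 3877 in lamina propria and 5934, 3662 and 6203 in lymph node. Over 8 epithelial genes the sum was 182 to 489 CPM in lamina propria and 26.5 to 34.4 CPM in lymph node for CD11b+ DCs, 55.5 to 97.3 and 23.5 to 28.7 CPM for CD103+, and 427 to 566 and 60.1 to 63.1 CPM for double-positive DCs. Over 6 macrophage genes it was 570 to 1328 and 247 to 411 CPM for CD11b+, 36.3 to 41.9 and 8.94 to 12.9 CPM for CD103+, and 270 to 302 and 68.1 to 74.2 CPM for double-positive DCs. Over 8 B cell genes the sum was 45.3 to 52.4 CPM in lamina propria and 168 to 236 CPM in lymph node for CD11b+ DCs. It was 16.8 to 24.1 and 38.5 to 47.6 CPM for CD103+, and 12.4 to 15.3 and 56.8 to 68.2 CPM for double-positive DCs. Over 4 granulocyte and mast cell genes it was 0.502 to 3.63 and 16.6 to 65.1 CPM for CD11b+ DCs. It was 0.0354 to 0.122 and 0.92 to 1.14 CPM for CD103+, and 0.135 to 1.38 and 2.09 to 7.30 CPM for double-positive DCs. The part of all these transcripts of other cells in the tissue comparisons was not tested.

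The summed CPM over each member set had its 3 highest group means in lamina propria, followed by lymph node CD11b+ DCs and then by the other lymph node groups. The 19 replication members summed to 1857, 2199 and 1666 CPM in the lamina propria CD11b+ libraries, 1690, 1745 and 1421 in CD103+ and 1765, 1694 and 1716 in double-positive. In lymph node they summed to 1384, 1168 and 1487 CPM for CD11b+, 697, 875 and 587 for CD103+ and 668, 725 and 670 for double-positive DCs. Every lymph node CD11b+ library but one was thus below every lamina propria library, and all were above all 6 other lymph node libraries. The 25 mitosis members summed to 1080, 1179 and 1024 CPM in lamina propria CD11b+, 1255, 1208 and 1256 in CD103+ and 1232, 1374 and 1544 in double-positive DCs. Those of lymph node were 1050, 762 and 985 CPM for CD11b+, 313, 449 and 331 for CD103+ and 346, 467 and 335 for double-positive DCs. For mitosis, the lymph node CD11b+ libraries overlapped those of lamina propria CD11b+ and stood far above the other lymph node libraries.

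**Figure D1:**
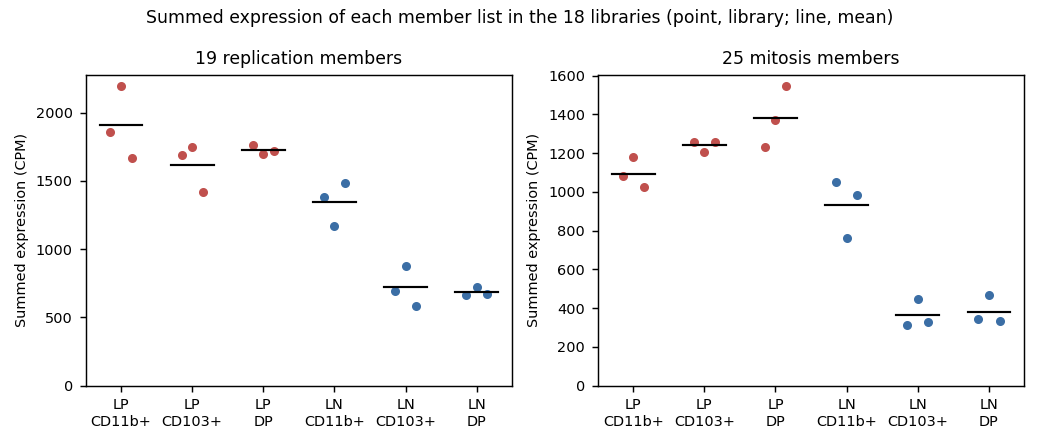
Summed expression of the 19 replication members (left) and the 25 mitosis members (right) in CPM on the vertical axis, for the 6 groups on the horizontal axis. LP is lamina propria, LN lymph node and DP double-positive. Each point is a library and each line the mean of 3. The lymph node CD103+ and double-positive libraries lie lowest in both panels, at 587 to 875 CPM for replication and 313 to 467 CPM for mitosis.

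The balance between the sets also differed between groups. The ratio of the mitosis sum to the replication sum was 0.578 ± 0.0394 (SD, n = 3) in lamina propria CD11b+ DCs, 0.773 ± 0.0995 in CD103+ and 0.803 ± 0.101 in double-positive DCs. In lymph node it was 0.691 ± 0.0585 for CD11b+, 0.508 ± 0.0574 for CD103+ and 0.553 ± 0.0785 for double-positive DCs. In lamina propria, every CD11b+ library had a lower ratio than every library of the other 2 subsets. From lamina propria to lymph node the mean ratio was higher in CD11b+ DCs and lower in CD103+ and double-positive DCs. No test was made of this ratio.

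For no member was the highest of the 6 group means in lymph node. Among the replication members, 9 were highest in lamina propria CD11b+ DCs, 6 in CD103+ DCs and 4 in double-positive DCs. All of Mcm2 to Mcm7 were in the first of these. Among the mitosis members, 20 were highest in lamina propria double-positive DCs and 5 in CD103+ (Cdc20, Cdk1, Ccnb1, Cenpe and Mki67). The lowest mean was always in lymph node CD103+ (9 replication and 13 mitosis members) or lymph node double-positive DCs (10 and 12). Per kilobase of exon, the level averaged over the groups ran from 41.8 CPM per kb for Pcna, the sliding clamp of the replication fork, to 0.801 CPM per kb for Cenpf, a large kinetochore protein. The 5 highest members on this scale were all of replication, Pcna, Mcm3, Mcm6, Mcm5 and Rrm2, and the highest mitosis member was Ccnb2 at 32.4 CPM per kb.

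**Figure D2:**
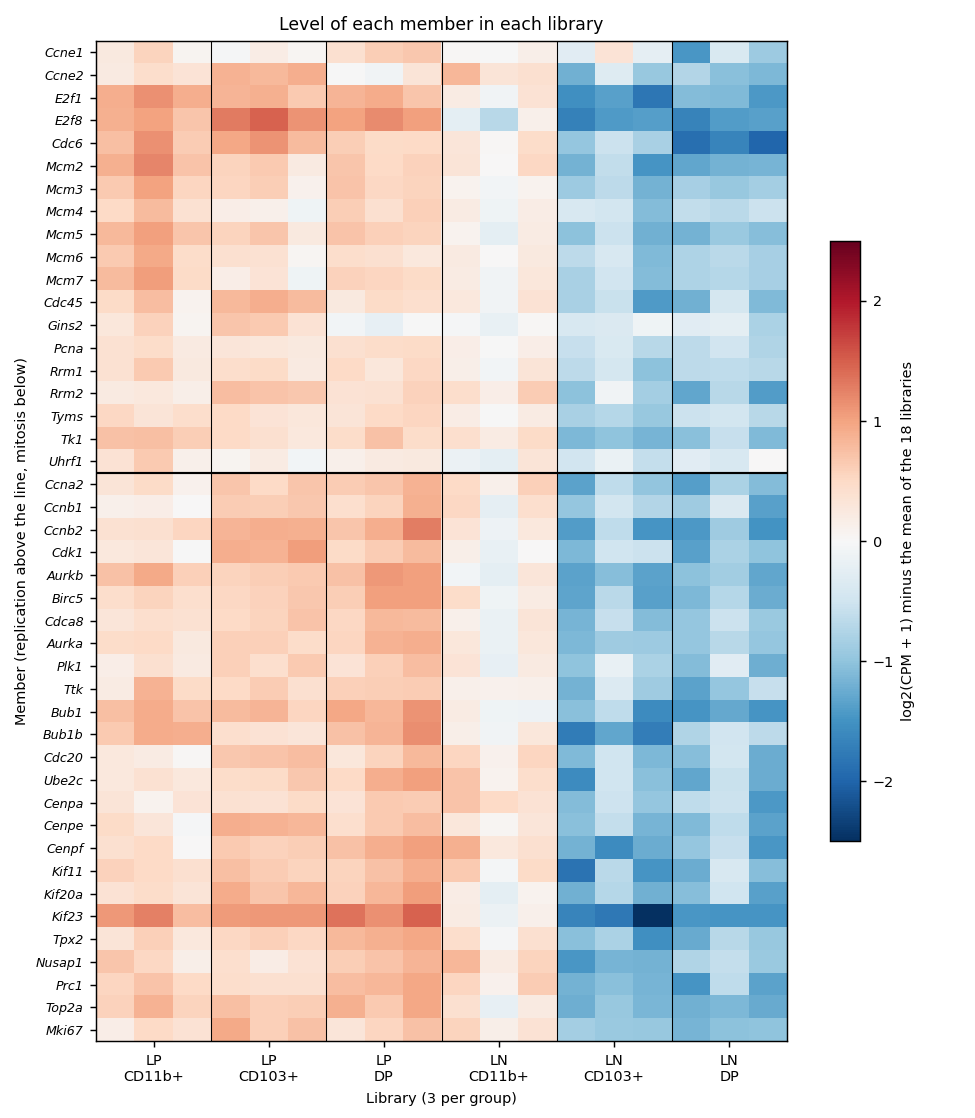
Level of each of the 44 members (rows, replication above the line and mitosis below) in each of the 18 libraries (columns, 3 per group), as log2(CPM + 1) minus the mean of that member over the 18 libraries. LP is lamina propria, LN lymph node and DP double-positive. The 6 libraries of lymph node CD103+ and double-positive DCs are below the mean in nearly all members, and the lymph node CD11b+ libraries are above those 6 for 16 of 19 replication and 24 of 25 mitosis members.

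Lymph node was compared with lamina propria in each subset to ask how the cell cycle program of DCs differs between the gut and its draining node. Differences are log2 fold changes of lymph node over lamina propria with their SE, from edgeR's quasi-likelihood test over all 17074 genes, and a gene was called at an adjusted p (Benjamini-Hochberg) under 0.01 and a fold change over 2. In CD11b+ DCs 1 of 19 replication and 1 of 25 mitosis members were called lower, against 4.93% of all genes, and none was called higher, against 10.3% of all genes. In CD103+ DCs 12 replication and 25 mitosis members were called lower (15.1% of all genes) and none higher (19.8%). In double-positive DCs 17 replication and 25 mitosis members were called lower (13.6%) and none higher (18.6%). DESeq2 gave the same 6 counts of lower members and also none higher. At an unadjusted p under 0.05, 14 replication and 5 mitosis members were lower in lymph node CD11b+ DCs, against 21% of all genes, and none was higher, against 25.3%. The share of mitosis members was near that of all genes.

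Over the replication members the median log2 fold change was -0.41 for the CD11b+ subset, -1.33 for CD103+ and -1.33 for double-positive DCs, beside 0.03, 0.04 and 0.07 for all genes tested. For the mitosis members the medians were -0.15, -1.70 and -1.85. Replication members were thus further below lamina propria than mitosis members in CD11b+ DCs, and nearer to it in the other 2 subsets. In CD11b+ DCs 13 of 19 replication and 8 of 25 mitosis members had every lymph node library below every lamina propria library, which held for 23.1% of all genes. Lymph node lay below in this way for 18 of 19 and 25 of 25 members in CD103+ DCs (31.5% of all genes) and for 19 of 19 and 25 of 25 in double-positive DCs (31.2%). In CD11b+ DCs 1 mitosis member, Cenpa, had every lymph node library above, without a call. The share of all genes separated in that direction was not computed.

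**Figure D3:**
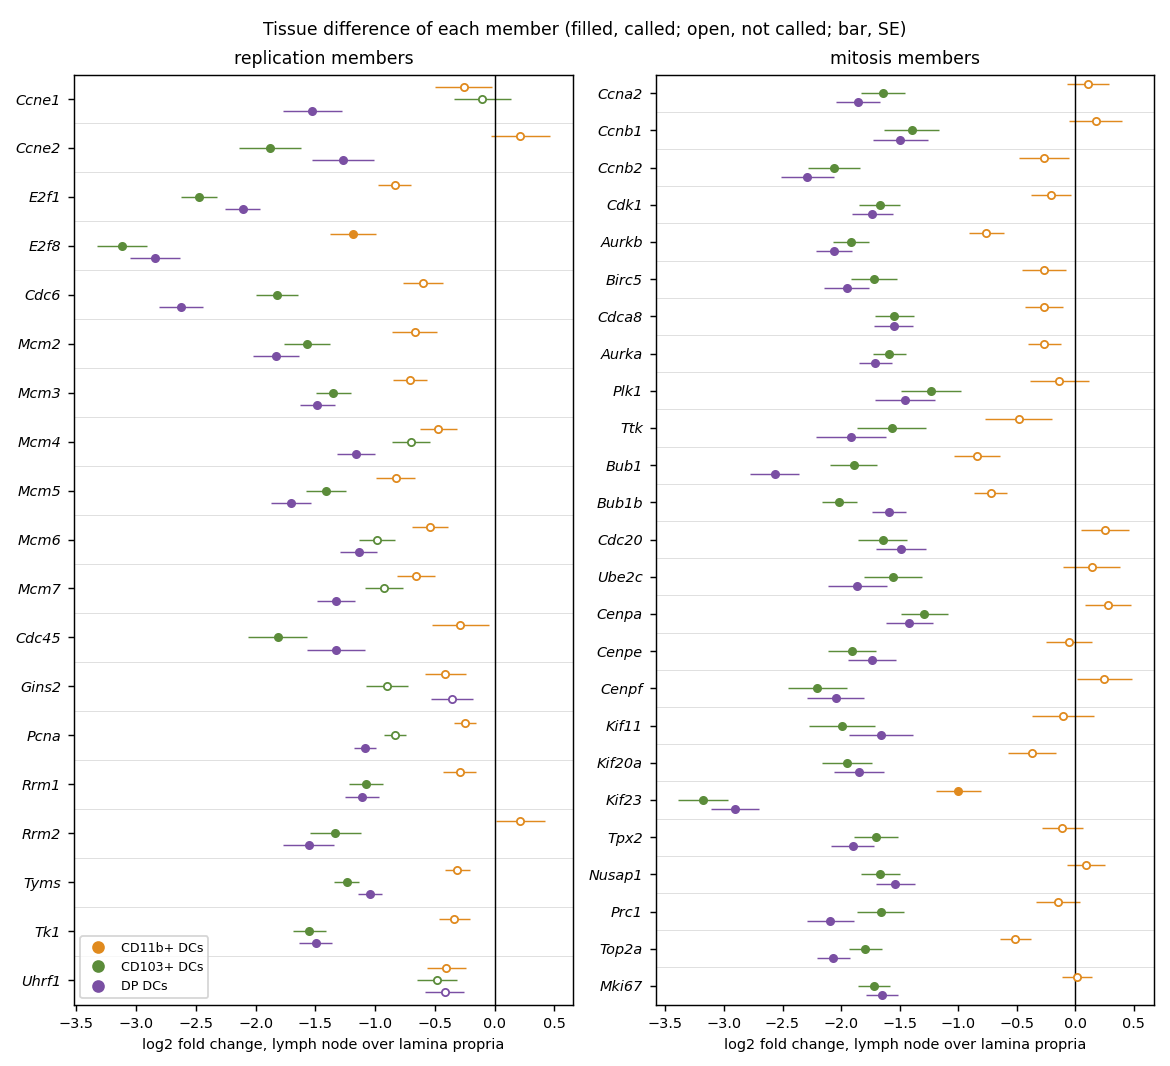
Log2 fold change of lymph node over lamina propria (horizontal axis) for each replication member (left) and mitosis member (right) in CD11b+, CD103+ and double-positive (DP) DCs. Points are estimates of edgeR's quasi-likelihood fit, bars their SE, and filled points are called. In the CD11b+ series only E2f8 and Kif23 are filled, while the other 2 series lie left of 0 throughout.

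Among the regulators of the step from G1 into S phase, E2f1, a transcription factor that switches on S phase genes, was at 56.8, 66.3 and 56.7 CPM in lamina propria CD11b+ DCs and at 34.3, 28.0 and 38.2 CPM in lymph node. Its values were 54.7, 55.8 and 47.6 CPM against 9.62, 11 and 7.75 CPM in CD103+ DCs, and 54.0, 57.5 and 48.8 CPM against 13.4, 13.3 and 10.4 CPM in double-positive DCs. No lymph node library reached any lamina propria library. E2f1 fell in CD103+ (-2.48 ± 0.15, adjusted p 3.9e-10) and double-positive DCs (-2.11 ± 0.15, adjusted p 3.1e-09), while the difference of -0.84 ± 0.14 in CD11b+ DCs had an adjusted p of 0.00018 but was under the fold limit. E2f8, an E2F that represses and is itself induced in S phase, was the replication member called in all 3 subsets, at -1.19 ± 0.19 for CD11b+, -3.12 ± 0.21 for CD103+ and -2.85 ± 0.21 for double-positive DCs. In CD11b+ DCs it fell from 21.6 ± 2.38 CPM to 9.51 ± 2.90 CPM (SD, n = 3), and without lymph node CD11b+ replicate 2 no replication member was called there. Of the E-type cyclins, Ccne2 fell in CD103+ (-1.88 ± 0.26) and double-positive DCs (-1.27 ± 0.26). Ccne1 was called only in double-positive DCs (-1.53 ± 0.25), with 15.8 ± 1.24 CPM against 14.7 ± 3.92 CPM in CD103+ DCs.

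Origin licensing and the helicase ring are represented by Cdc6, which loads the ring, and Mcm2 to Mcm7, its subunits. Mcm6 was at 265, 324 and 233 CPM in lamina propria CD11b+ DCs against 198, 169 and 199 CPM in lymph node. In CD103+ DCs it was at 222, 219 and 175 CPM against 107, 127 and 77.8 CPM, and in double-positive DCs at 228, 222 and 202 CPM against 97.8, 105 and 93.6 CPM. Lymph node lay below lamina propria in every library of each subset. Mcm6 fell in double-positive DCs (-1.14 ± 0.15, adjusted p 7.0e-06), and in CD103+ DCs its difference of -0.99 ± 0.15 (adjusted p 2.9e-05) stopped just short of the fold limit. It was called there without the low count filter (-1.04), with the replicate block within each tissue (-1.01), with total counts (-1.21), and without lamina propria CD103+ replicate 3 (-1.11) or lymph node CD103+ replicate 1 (-1.03) or 2 (-1.18). Of the 6 ring subunits, Mcm2, Mcm3 and Mcm5 were called in CD103+ DCs, at -1.35 to -1.57, and Mcm4, Mcm6 and Mcm7 were not, at -0.70 to -0.99. All 6 were called in double-positive DCs, at -1.14 to -1.83, and none in CD11b+ DCs, where they were at -0.47 to -0.83. Cdc6 fell the most of the 7 licensing genes, with log2 fold changes of -1.82 ± 0.17 in CD103+ DCs and -2.62 ± 0.18 in double-positive DCs. Cdc6 was at -0.60 ± 0.17 in CD11b+ DCs (adjusted p 0.009, under the fold limit).

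At the fork, Pcna was at 124, 133 and 112 CPM in lamina propria CD11b+ DCs and at 108, 95.1 and 108 CPM in lymph node. It was at 119, 117 and 114 CPM against 64.4, 73.4 and 58.7 CPM in CD103+ DCs, and at 127, 132 and 135 CPM against 61.0, 68.3 and 56.6 CPM in double-positive DCs. The replicates were close and the groups did not overlap in any subset. Pcna fell in double-positive DCs (-1.08 ± 0.09, adjusted p 3.2e-08), and the difference of -0.83 ± 0.09 in CD103+ DCs had an adjusted p of 6.3e-07 under the fold limit, which it passed with total counts (-1.05). Cdc45, which activates the helicase, fell in CD103+ (-1.82 ± 0.25) and double-positive DCs (-1.33 ± 0.25). Gins2, a subunit of the complex that joins Cdc45 at the helicase, was called in no subset, at -0.41 ± 0.17, -0.90 ± 0.17 and -0.35 ± 0.18.

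The 4 genes of nucleotide synthesis were called lower in both CD103+ and double-positive DCs, and none in CD11b+ DCs. Rrm2, the S phase subunit of ribonucleotide reductase, was at 100, 103 and 94.8 CPM in lamina propria CD11b+ DCs and at 116, 96.5 and 133 CPM in lymph node, where the libraries overlapped. In CD103+ DCs it was at 148, 142 and 137 CPM against 41.8, 80.5 and 46.7 CPM, and in double-positive DCs at 110, 111 and 128 CPM against 34.1, 52.6 and 32.0 CPM. Replicate 2 was the highest lymph node library of both subsets and still lay below every lamina propria library. Rrm2 fell in CD103+ (-1.33 ± 0.21, adjusted p 3.5e-05) and double-positive DCs (-1.55 ± 0.21, adjusted p 8.5e-06). Rrm1, the large subunit, Tyms, thymidylate synthase, and Tk1, thymidine kinase, were at -1.04 to -1.55 in these subsets.

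Uhrf1, which guides maintenance DNA methylation behind the fork, was with Gins2 the replication member called in no subset. Its levels were 89.7, 111 and 76.1 CPM against 62.5, 58.7 and 87.5 CPM in CD11b+ DCs, 73.4, 80.6 and 66.1 CPM against 49.8, 62.3 and 45.6 CPM in CD103+ DCs, and 76.5, 81.4 and 82.8 CPM against 57.2, 52.5 and 70.4 CPM in double-positive DCs. The log2 fold changes were -0.41 ± 0.16, -0.48 ± 0.17 and -0.42 ± 0.17, with adjusted p of 0.062, 0.018 and 0.038. Of the 44 members it had the largest adjusted p for a difference of the tissue effect between subsets (0.96).

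Among the mitosis members, the cyclins and their kinase were called lower in both CD103+ and double-positive DCs. Ccnb2, cyclin B2, was at 54.2, 54.5 and 60.4 CPM in lamina propria CD11b+ DCs and at 52.8, 37.5 and 49.9 CPM in lymph node. Its values were 75.3, 78.9 and 77.0 CPM against 15.0, 26.1 and 14.3 CPM in CD103+ DCs, and 67.5, 78.0 and 102 CPM against 14.7, 21.8 and 14.0 CPM in double-positive DCs. Ccnb2 fell in these 2 subsets (-2.06 ± 0.22, adjusted p 4.8e-07, and -2.29 ± 0.22, adjusted p 1.8e-07), and was at -0.27 ± 0.21 in CD11b+ DCs. Ccna2, Ccnb1 and Cdk1 were at -1.40 to -1.85 in CD103+ and double-positive DCs and at -0.21 to 0.17 in CD11b+ DCs.

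The chromosomal passenger complex corrects wrong attachments of chromosomes and completes division. It is represented by Aurkb, Birc5 and Cdca8. Birc5, survivin, was at 61.1, 66.6 and 60.7 CPM against 62.6, 41.7 and 52.3 CPM in CD11b+ DCs, and the libraries overlapped. It was at 64.8, 67.2 and 72.4 CPM against 17.5, 27.7 and 16.9 CPM in CD103+ DCs, and at 69.7, 92.6 and 93.0 CPM against 20.2, 27.2 and 18.4 CPM in double-positive DCs. Birc5 fell in both (-1.72 ± 0.20, adjusted p 8.4e-07, and -1.95 ± 0.20, adjusted p 2.3e-07) and was at -0.27 ± 0.19 in CD11b+ DCs. Aurkb, the kinase of the complex, was at -0.76 ± 0.15 in CD11b+ DCs (adjusted p 0.00066), a difference under the fold limit, and fell in the other 2 subsets (-1.91 ± 0.15 and -2.06 ± 0.15). Cdca8, borealin, was at -0.27 ± 0.16 in CD11b+ DCs and fell in both others, by a log2 fold change of -1.55 each.

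The spindle checkpoint delays anaphase until all chromosomes are attached. Bub1b, the checkpoint protein BubR1, was at 60.7, 73.2 and 72.4 CPM against 42.5, 35.9 and 46.7 CPM in CD11b+ DCs, 51.3, 49.0 and 46.9 CPM against 10.7, 14.9 and 10.8 CPM in CD103+ DCs, and 64.1, 69.3 and 86.6 CPM against 22.1, 27.0 and 23.8 CPM in double-positive DCs. Every lymph node library was below every lamina propria library of its subset. Bub1b fell in CD103+ (-2.02 ± 0.15, adjusted p 4.6e-09) and double-positive DCs (-1.59 ± 0.15, adjusted p 7.2e-08), and its difference in CD11b+ DCs (-0.72 ± 0.14, adjusted p 0.00071) was under the fold limit. Its partner Bub1 was at -0.84 ± 0.19 in CD11b+ DCs (adjusted p 0.0024) and fell in the others (-1.89 ± 0.20 and -2.57 ± 0.21). The kinases Aurka, Plk1 and Ttk were at -1.23 to -1.92 in CD103+ and double-positive DCs.

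The anaphase-promoting complex is represented by its activator Cdc20 and its ubiquitin-conjugating enzyme Ube2c. Cdc20 was at 0.25 ± 0.21 in CD11b+ DCs and fell in CD103+ (-1.65 ± 0.21) and double-positive DCs (-1.49 ± 0.21). Ube2c was at 51.0, 55.6 and 50.7 CPM against 69.8, 45.3 and 58.1 CPM in CD11b+ DCs, 58.7, 59.0 and 68.3 CPM against 13.5, 29.6 and 20.1 CPM in CD103+ DCs, and 60.2, 80.3 and 87.3 CPM against 16.6, 28.5 and 17.4 CPM in double-positive DCs. Ube2c fell in the last 2 subsets (-1.56 ± 0.25, adjusted p 4.2e-05, and -1.86 ± 0.25, adjusted p 7.3e-06). In CD11b+ DCs the libraries overlapped and the log2 difference was 0.14 ± 0.24, which turned to -0.02 without lymph node CD11b+ replicate 1.

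At the centromere, Cenpa, the histone variant that marks it, was at 42.2, 35.7 and 42.4 CPM in lamina propria CD11b+ DCs and at 55.5, 47.4 and 43.4 CPM in lymph node. It was at 44, 43.0 and 46.9 CPM against 15.2, 23.0 and 16.6 CPM in CD103+ DCs, and at 42.3, 53.1 and 52.5 CPM against 21, 22.5 and 11.6 CPM in double-positive DCs. The direction in CD11b+ DCs was opposite to that in the other 2 subsets, with 0.28 ± 0.20 (adjusted p 0.28) against -1.29 ± 0.20 (adjusted p 3.2e-05) and -1.42 ± 0.20 (adjusted p 1.3e-05). Cenpe and Cenpf, kinetochore proteins, were at -0.05 and 0.25 in CD11b+ DCs and fell in the others, at -1.74 to -2.20.

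Kif23, a kinesin of the midbody needed for cytokinesis, was the mitosis member with the lowest log2 fold change in all 3 tissue comparisons. It was at 74.9, 85.2 and 60.2 CPM against 40.4, 31.4 and 38.3 CPM in CD11b+ DCs, 73.6, 74.5 and 74.6 CPM against 10.5, 9.40 and 4.69 CPM in CD103+ DCs, and 90.7, 78.4 and 98.5 CPM against 12.0, 11.9 and 11.8 CPM in double-positive DCs. Kif23 fell in CD103+ (-3.18 ± 0.21, adjusted p 1.3e-09) and double-positive DCs (-2.91 ± 0.21, adjusted p 4.1e-09). In CD11b+ DCs the difference of -1.0 ± 0.19 (adjusted p 0.00062) lay at the fold limit, and the call was lost with total counts (-0.87), a stricter filter (-0.99), a replicate block (-1.0, or -0.83 with the block within each tissue), and when any of 14 of the 18 libraries was left out. The other 5 spindle members, Kif11, Kif20a, Tpx2, Nusap1 and Prc1, were at -0.37 to 0.09 in CD11b+ DCs and at -1.54 to -2.09 in the others.

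Top2a, the topoisomerase that separates sister chromatids, was at 95.9, 118 and 95.1 CPM against 85.7, 55.4 and 75.1 CPM in CD11b+ DCs, 110, 97.4 and 98.9 CPM against 27.1, 32.7 and 28.4 CPM in CD103+ DCs, and 119, 102 and 126 CPM against 27.5, 29.2 and 26.3 CPM in double-positive DCs. Its log2 fold changes were -0.51 ± 0.13 (adjusted p 0.0061, under the fold limit), -1.79 ± 0.14 (adjusted p 8.1e-09) and -2.07 ± 0.14 (adjusted p 2.1e-09). Mki67, the proliferation antigen Ki-67, was at 42.4, 53.3 and 48.9 CPM against 55.8, 41.6 and 48.7 CPM in CD11b+ DCs, where the means were 48.2 and 48.7 CPM. It was at 73.1, 57.1 and 62.9 CPM against 20.4, 19.3 and 19 CPM in CD103+ DCs, and at 46.6, 54.8 and 63.4 CPM against 16.2, 18.1 and 18.2 CPM in double-positive DCs. Mki67 fell in these subsets (-1.72 ± 0.14, adjusted p 9.6e-09, and -1.65 ± 0.14, adjusted p 2.0e-08) and was at 0.02 ± 0.13 in CD11b+ DCs (adjusted p 0.94).

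**Figure D4:**
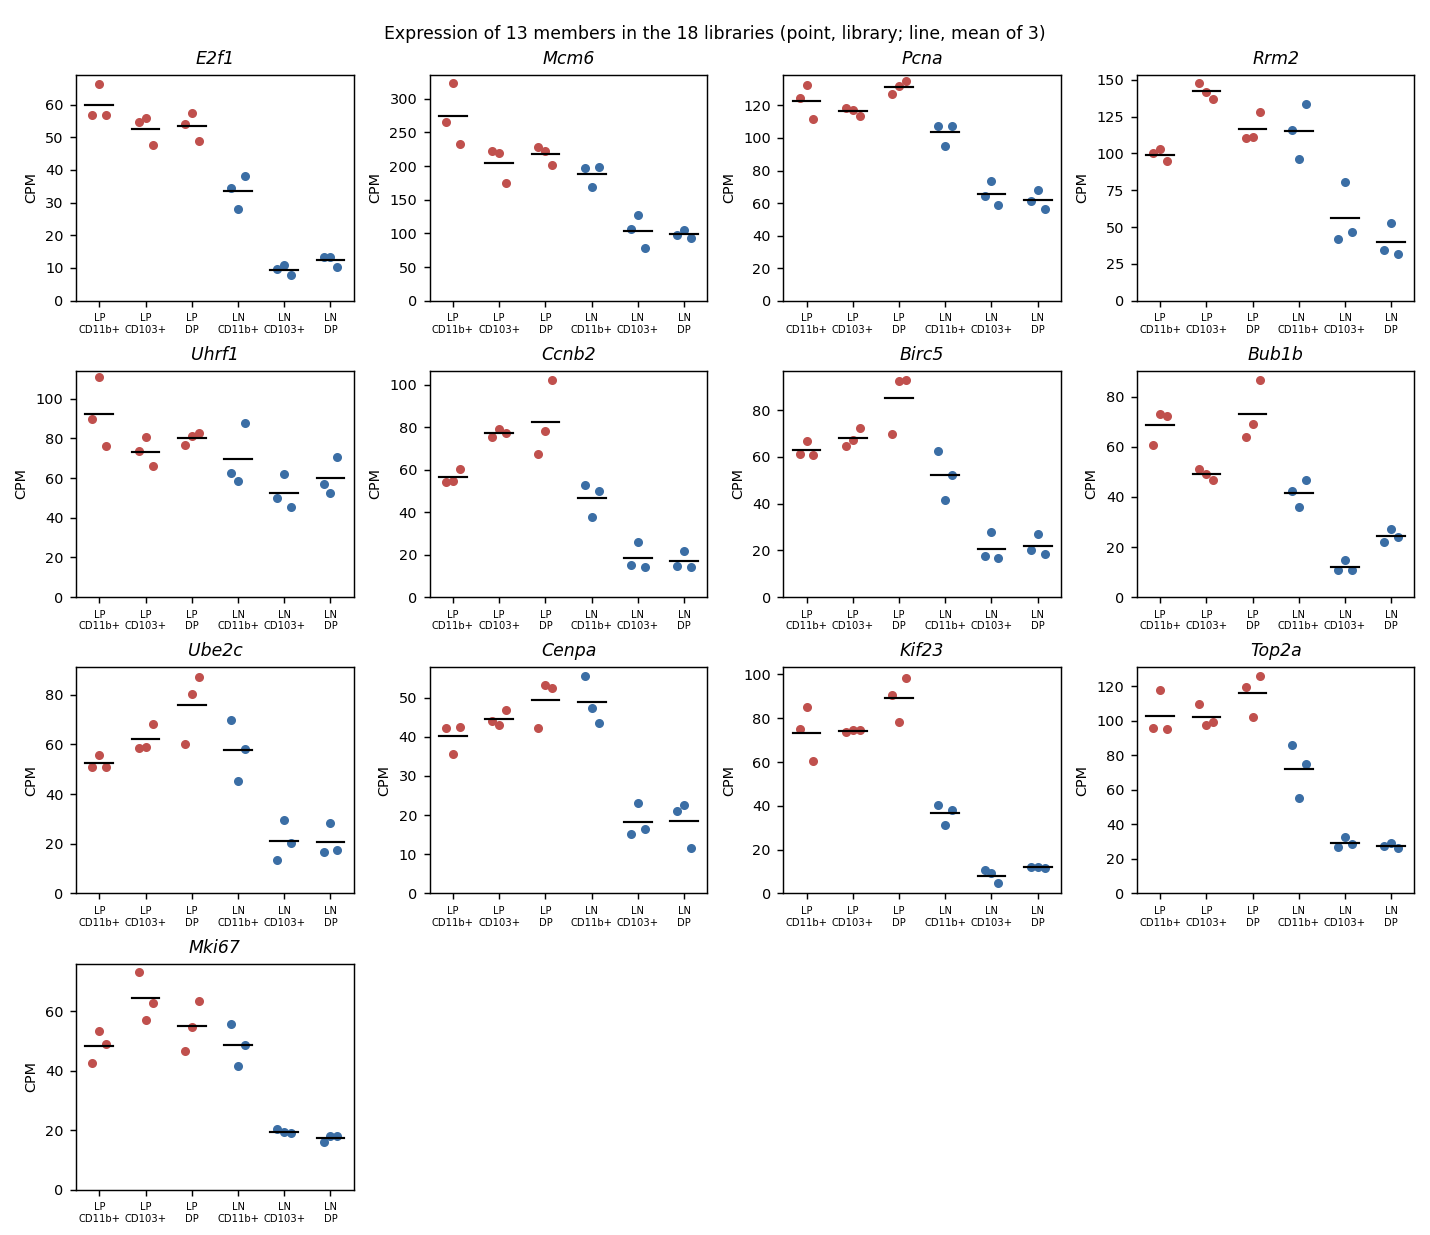
Expression in CPM (vertical axis, from 0) of the 13 members given by library, in the 6 groups (horizontal axis; LP, lamina propria; LN, lymph node; DP, double-positive). Each point is a library and each line the mean of 3. Lymph node CD11b+ DCs lie near the lamina propria level for Rrm2, Cenpa, Ube2c and Mki67, and between the lamina propria and the other lymph node groups for E2f1, Bub1b, Kif23 and Top2a.

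Whether the tissue effect differs between the subsets was tested directly with an F test of the interaction, called at an adjusted p under 0.01 with no fold limit. It passed for 12 of 19 replication and 23 of 25 mitosis members, against 31.5% of all genes. The replication members that did not pass were Mcm3, Mcm4, Mcm5, Mcm6, Mcm7, Gins2 and Uhrf1, so that 5 of the 6 ring subunits were among them, and the mitosis members were Plk1 and Ttk. Between CD103+ and CD11b+ DCs the tissue effect differed for 10 replication and 23 mitosis members, all more negative in CD103+ DCs, against 27.2% of all genes in either direction. Between double-positive and CD11b+ DCs it differed for 13 and 23 members, all more negative in double-positive DCs (18.7%). Between double-positive and CD103+ DCs it differed for Ccne1 alone (-1.42 ± 0.34, adjusted p 0.0061), against 13.1% of all genes. For Mki67 the tissue effect in CD103+ DCs minus that in CD11b+ DCs was -1.73 ± 0.19 on the log2 scale, and that in double-positive minus that in CD103+ DCs was 0.07 ± 0.19. The median difference between CD103+ and CD11b+ DCs was -0.79 over the replication members and -1.57 over the mitosis members.

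Within lamina propria the subsets were compared to ask whether the cell cycle program depends on the subset before the lymph node. No member was called in any of the 3 comparisons by edgeR or by DESeq2. Against these 0 calls, 5.07% of all genes were called higher and 10.6% lower in CD103+ than in CD11b+ DCs, 1.14% and 3.67% in double-positive than in CD11b+ DCs, and 8.1% and 5.52% in double-positive than in CD103+ DCs. At an unadjusted p under 0.05, 7 replication members were lower and 3 higher in CD103+ than in CD11b+ DCs, while 1 mitosis member was lower and 7 higher, against 25% of all genes lower and 19.9% higher. Between double-positive and CD11b+ DCs the same counts were 2 lower and 0 higher for replication and 0 lower and 11 higher for mitosis, against 14.4% and 11.1% of all genes. Between double-positive and CD103+ DCs they were 3 lower and 3 higher for replication and 0 lower and 4 higher for mitosis, against 19.9% and 21.8% of all genes. All 25 mitosis members had a fitted mean above that of CD11b+ DCs in double-positive DCs, against 48.6% of all genes. Their median was 0.35 and that of the replication members -0.15, beside -0.00499 for all genes. The differences with the smallest adjusted p stayed under the fold limit. Cdk1 was at 67.7 ± 4.43 CPM in CD103+ and 40.0 ± 4.83 CPM in CD11b+ DCs (log2 difference 0.76 ± 0.17, adjusted p 0.0019). Mcm7 was at 109 ± 16.7 and 171 ± 33.6 CPM (-0.65 ± 0.16, adjusted p 0.0033), and Bub1b was higher in double-positive than in CD103+ DCs by 0.58 ± 0.14 (adjusted p 0.0039). In lamina propria the CD11b+ libraries had the most plasma cell (1785 to 2192 CPM summed over 4 genes, against 542 to 783 CPM in the other 2 subsets) and macrophage transcripts (570 to 1328 CPM over 6 genes, against 36.3 to 302 CPM). The double-positive libraries had the highest median of the epithelial sum, at 427 to 566 CPM, against 182 to 489 CPM in CD11b+ and 55.5 to 97.3 CPM in CD103+ DCs. The part of these transcripts was not tested.

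Within lymph node, CD11b+ DCs had the higher level of nearly all members. Both other subsets were compared with the same 3 CD11b+ libraries. In CD103+ DCs 8 replication and 23 mitosis members were called lower than in CD11b+ DCs (15.6% of all genes) and none higher (10.2%). In double-positive DCs 9 and 22 were called lower (9.82%) and none higher (6.92%). The medians were -0.95 and -1.33 in CD103+ and -0.98 and -1.33 in double-positive DCs for replication and mitosis, beside -0.13 and -0.08 for all genes tested. All 3 CD11b+ libraries were above all 6 other lymph node libraries for 16 of 19 replication and 24 of 25 mitosis members, and for 24.6% of all genes. Kif23 was at 36.7 ± 4.72 CPM for CD11b+, 8.19 ± 3.08 for CD103+ and 11.9 ± 0.0817 for double-positive DCs (log2 fold changes -2.16 ± 0.21 and -1.62 ± 0.20). E2f1 was at 33.5 ± 5.19, 9.46 ± 1.63 and 12.4 ± 1.75 CPM (-1.82 ± 0.15 and -1.44 ± 0.15). Mki67 was at 48.7 ± 7.12, 19.6 ± 0.771 and 17.5 ± 1.11 CPM (-1.32 ± 0.13 and -1.48 ± 0.13). The members not called in either comparison were all of replication but Plk1, namely Ccne1, Gins2, Mcm3, Mcm4, Mcm6, Mcm7, Pcna, Rrm1, Tyms and Uhrf1, at -0.09 to -0.98.

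The number of replication calls within lymph node varied with the scaling and with the libraries used. With total counts in place of TMM, 16 replication members were called in CD103+ and 17 in double-positive DCs against CD11b+ DCs, all lower. This scaling moved the median of all genes by -0.43 and -0.37, and the share of lower genes among all calls went from 60.4% to 80.5% and from 58.7% to 80.7%. Without lymph node CD103+ replicate 2, 14 replication members were called lower in CD103+ DCs. The CD11b+ libraries also had more of the transcripts of other cells than the other lymph node libraries. All 6 macrophage genes (247 to 411 CPM summed, against 8.94 to 74.2), all 4 plasma cell genes (1397 to 1505 CPM, against 336 to 658), 6 of 8 B cell genes (168 to 236 CPM, against 38.5 to 68.2) and 3 of 4 granulocyte and mast cell genes (16.6 to 65.1 CPM, against 0.92 to 7.30) were higher in every CD11b+ library than in the other 6. None of these genes was at 0 in all 3. T cell genes overlapped, at 488 to 756 CPM against 369 to 730 CPM, with 1 of 10 genes higher in every CD11b+ library. The part of these cells in the result was not tested.

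Between double-positive and CD103+ DCs of lymph node, 1 replication member was lower (1.84% of all genes) and 1 mitosis member higher (4.69%). Cdc6 was at 3.85 ± 0.585 CPM in double-positive and 9.19 ± 1.58 CPM in CD103+ DCs (-1.25 ± 0.18, adjusted p 7.3e-05), and without lymph node double-positive replicate 2 a second replication member was called lower. Bub1b was at 24.3 ± 2.5 and 12.1 ± 2.38 CPM (1.0 ± 0.15, adjusted p 9.5e-05), at the fold limit, and was not called by DESeq2, with DESeq2's size factors, or without lymph node CD103+ replicate 1 or 3 or double-positive replicate 2.

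Other genes of the same pathways were counted from lists of 30 further replication and 43 further mitosis genes. In CD11b+ DCs 0 of both lists were called between the tissues by edgeR's quasi-likelihood test, against 4.93% of all genes lower and 10.3% higher. At an unadjusted p under 0.05 in this test, 19 further replication genes were lower and 0 higher, and 9 further mitosis genes were lower and 3 higher. Of all genes 21% were lower and 25.3% higher at this limit. The share of further mitosis genes that were lower was near that of all genes. Among the further replication genes 12 were called lower in CD103+ DCs (15.1% of all genes) and 14 in double-positive DCs (13.6%). Gins3 alone was called higher, and this in both (19.8% and 18.6% of all genes). Of the further mitosis genes 33 and 34 were called lower and none higher, against the same shares of all genes. Among the further replication genes the median was -0.42 for CD11b+, -0.96 for CD103+ and -0.93 for double-positive DCs, and among the further mitosis genes -0.24, -1.58 and -1.65. Timeless, which stabilises paused forks, was at 110 ± 5.46 CPM in lamina propria CD103+ DCs, more than in CD11b+ (41.9 ± 6.95) or double-positive DCs (55.1 ± 8.79), and fell to 9.49 ± 3.44 CPM in lymph node (-3.54 ± 0.24, adjusted p 1.2e-09). In double-positive DCs Timeless was at -2.32 ± 0.22, and Mcm10, which helps to fire the loaded ring, fell (-2.39 ± 0.25). Foxm1, the transcription factor of many mitosis genes, fell in both subsets (-2.98 ± 0.34 and -2.48 ± 0.34), from 28.3 ± 0.767 to 3.58 ± 2.53 CPM and from 21.3 ± 4.12 to 3.82 ± 0.704 CPM. Pbk, a mitotic kinase, fell in CD103+ DCs (-2.55 ± 0.26), and Anln, a scaffold of the contractile ring, in double-positive DCs (-2.47 ± 0.35). Gins3, another subunit of the complex of Gins2, went the other way, from 10.6 ± 1.40 to 62.4 ± 3.80 CPM in CD103+ (2.56 ± 0.16, adjusted p 6.6e-10) and from 16.3 ± 1.37 to 68.7 ± 5.14 CPM in double-positive DCs (2.08 ± 0.16, adjusted p 8.8e-09), with 20.9 ± 5.11 and 23.2 ± 3 CPM in CD11b+ DCs.

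Of 22 genes of G1 control and cell cycle exit, 1 passed the test in CD11b+ DCs, and it was higher in lymph node. Of all genes 10.3% were called higher there. In CD103+ DCs 5 rose and 5 fell. In double-positive DCs 5 rose and 6 fell. The shares that rose were near the 19.8% and 18.6% of all genes called higher in these subsets. Of all genes 15.1% and 13.6% were called lower in them. By the same edgeR test, 8 were higher and 8 lower in CD11b+ DCs at an unadjusted p under 0.05, against 25.3% and 21% of all genes. Cdkn1a, the cyclin-dependent kinase inhibitor p21, had the largest rise in both subsets, from 27.1 ± 3.20 to 413 ± 44.8 CPM in CD103+ (3.93 ± 0.18, adjusted p 1.4e-11) and from 61.3 ± 6.57 to 547 ± 47.8 CPM in double-positive DCs (3.16 ± 0.18, adjusted p 1.7e-10). In CD11b+ DCs Cdkn1a was at 85.6 ± 5.20 CPM in lamina propria and 141 ± 39.9 CPM in lymph node, without a call. Ccng2, an unconventional cyclin of resting cells, rose by 3.41 ± 0.10 and 2.58 ± 0.10, from 53.4 ± 4.85 to 568 ± 25.9 CPM in CD103+ and from 45.2 ± 2.40 to 270 ± 3.62 CPM in double-positive DCs. Rbl2, the pocket protein p130 that represses cell cycle genes in resting cells, was the gene called higher in all 3 subsets (1.17 ± 0.15, 1.67 ± 0.15 and 1.94 ± 0.15). Btg1, an antiproliferative gene, rose in CD103+ (1.98 ± 0.11) and double-positive DCs (1.2 ± 0.11). Its relative Btg2 fell in both (-2.57 ± 0.19 and -2.28 ± 0.19).

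The tissue effect in double-positive DCs minus that in CD103+ DCs was called for 7 of the 22 G1 genes, against 13.1% of all genes. Ccnd1, cyclin D1, fell in both (-2.82 ± 0.18 and -1.06 ± 0.16), from 47.8 ± 6.10 to 6.78 ± 0.714 CPM in CD103+ DCs, and the difference between these effects was called (1.76 ± 0.23, adjusted p 3.7e-05). Ccnd2, cyclin D2, rose in CD103+ DCs (2.53 ± 0.14), from 70.0 ± 8.69 to 405 ± 45.9 CPM, and was at 496 ± 74.2 and 758 ± 43.0 CPM in double-positive DCs, without a call, and this difference of effects was called too (-1.92 ± 0.18, adjusted p 1.2e-06). Its lamina propria level in CD103+ DCs was far below the 346 ± 43.4 CPM of CD11b+ DCs. Cdk6, a kinase of the D-type cyclins, rose in double-positive DCs (1.61 ± 0.24), with a called difference from CD103+ DCs (1.42 ± 0.33, adjusted p 0.0049). Cdk4, the other such kinase, fell in double-positive DCs (-1.31 ± 0.12) and was at the fold limit without a call in CD103+ DCs (-1.0 ± 0.12, adjusted p 1.9e-06), and the difference between the subsets was not called (-0.31 ± 0.17, adjusted p 0.22). Cdkn2d, an inhibitor of these kinases, fell in double-positive DCs (-1.44 ± 0.15), with a called difference from CD103+ DCs (-1.25 ± 0.22, adjusted p 0.00049). The E2F genes E2f2 (-2.06 ± 0.19 and -1.85 ± 0.19) and E2f7 (-2.94 ± 0.40 and -2.04 ± 0.39) fell in CD103+ and double-positive DCs, and E2f3 fell in CD103+ DCs (-1.21 ± 0.26).

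**Figure D5:**
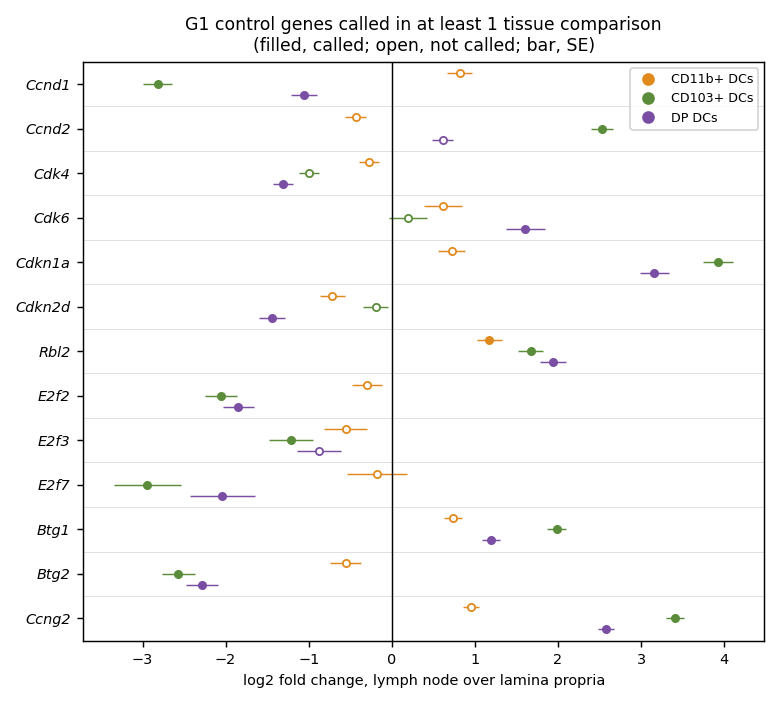
Log2 fold change of lymph node over lamina propria (horizontal axis) for the 13 of 22 G1 control genes called in at least 1 tissue comparison, in CD11b+, CD103+ and double-positive (DP) DCs. Bars are the SE of edgeR's quasi-likelihood fit and filled points are called. Cdkn1a, Ccng2, Btg1 and Rbl2 lie right of 0 in all 3 subsets, while E2f2, E2f3, E2f7 and Btg2 lie left of it.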

How the data were processed

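RNA was sequenced with the Smart-seq v4 kit on a HiSeq4000, and per the labels the reads were checked with FastQC 0.11.7 and aligned with STAR 2.6 to GRCm38. The authors deposited raw counts of reads per gene without normalization. The counting tool and its use of strand are not given in the sources used here. Of the members, 14 share exonic bases with a gene on the opposite strand and 4 have a pseudogene of their name (Ccnb1, Ccnb2, Pcna, Tyms), and their counts are uncertain to that extent. Symbols were matched by identifier for 54079 of 54232 genes (GENCODE vM21).

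Counts were tested with edgeR 4.0.16 (R 4.3.3): TMM, filterByExpr over the 6 groups, 1 quasi-likelihood fit of the 6 group means to all 18 libraries, and Benjamini-Hochberg adjustment over 17074 genes, which served all comparisons. CPM values used TMM-scaled library sizes, and SEs were derived from the F statistic. The fit was also run on simulated counts with the same spread for every gene. The spread of the real data was not simulated, so this run does not show how well the fit suits them. As alternatives, the test was DESeq2 1.42.0, the scaling DESeq2's size factors or total counts, the filter absent or set at 100 counts in 3 libraries, the adjusted p limit 0.05, the depth made equal by thinning, and the fit given only the 6 libraries compared or replicate blocks. Each library was also left out in turn. The members and lists, and the tests, were chosen with earlier results of these data known. Values are given per library for the member of each role with the highest mean CPM, and for Mki67. Other genes named are the called G1 control genes and, per further list, the 2 largest called changes in a tissue comparison. Nothing in the labels says that replicates are separate animals, so p-values measure the spread between these libraries.

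Replicate numbers were checked as pairs by the correlation of same-numbered deviations from group means, which was 0.075 to 0.25 between lamina propria subsets, 0.0152 to 0.129 between lymph node subsets and -0.101 to 0.0731 across tissues. For differently numbered libraries it was -0.269 to 0.088, -0.0786 to 0.0347 and -0.0673 to 0.0762. The medians were 0.189, 0.0343 and 0.00472 for the same number and -0.093, -0.0262 and -0.000324 for different numbers. The main fit had no term for the replicate number.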

Additional observations from a re-analysis of the deposited data

Results flagged for a closer look

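The tissue effect differed between the 3 subsets, by the F test of the interaction in edgeR's quasi-likelihood fit, for 12 of the 19 replication members and for 23 of the 25 mitosis members. Among the members with values per library, the adjusted p of this difference was 1.27e-06 for Mki67, 1.07e-05 for Top2a, 1.28e-05 for Kif23, 1.29e-05 for E2f1, 7.19e-05 for Ccnb2 and 0.000133 for Birc5. It was 0.000151 for Cenpa, 0.000178 for Pcna, 0.000206 for Rrm2, 0.000208 for Bub1b and 0.000328 for Ube2c. In each of these 11 genes the log2 fold change of lymph node over lamina propria was nearest to 0 or above it in CD11b+ DCs and below 0 in CD103+ and double-positive DCs. Mcm6 and Uhrf1 also have values per library and did not pass the test.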

How the results depend on the processing

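Most counts of called members stayed within 1.5 times the main count. With total counts, 16 replication members were called in CD103+ and 17 in double-positive against CD11b+ DCs of lymph node, and the calls over all genes there went from 1750 higher and 2670 lower to 1020 and 4223, and from 1181 and 1676 to 697 and 2923. The single mitosis call between the tissues in CD11b+ DCs became 0 with total counts, the stricter filter, the replicate block and the replicate block within each tissue, and the single mitosis call between double-positive and CD103+ DCs of lymph node became 0 with DESeq2's size factors and with DESeq2. The replicate block moved no other count by over 1.5 times, and the 0 calls in lamina propria stayed 0 under it. With 1 library left out, replication calls ranged from 0 to 1 between the tissues in CD11b+ DCs, and in lymph node from 6 to 14 for CD103+ against CD11b+ and from 1 to 2 for double-positive against CD103+ DCs. The mitosis calls ranged from 0 to 1 in the first and the last of these.

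The Mki67 difference between the tissues in CD11b+ DCs, which was not called, turned to -0.00186 with DESeq2's size factors, -0.00971 at equal depth and -0.00177 with DESeq2, and ranged from -0.0925 to 0.118 with 1 library left out. That of Ube2c ranged from -0.0192 to 0.287. The median of double-positive against CD103+ DCs in lymph node turned to 0.0537 for replication with total counts and to -0.00398 for mitosis with DESeq2's size factors. The cause of these changes was not tested. An alternative chosen after seeing the data left out both lymph node libraries with Xist and Ddx3y, and every count stayed within 1.5 times the main one. The lowest count of a member in any library was 37.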
